A study of Mus musculus with 6 samples.

Results

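Principal cells of the renal collecting duct were described through 10 genes that mark them or carry their transport: the water channels Aqp2, Aqp3 and Aqp4, the vasopressin receptor gene Avpr2, the 3 sodium channel subunit genes Scnn1a, Scnn1b and Scnn1g, and Hsd11b2, Fxyd4 and Gata3. The genes were chosen by name, as known genes of the cell type but with earlier results of these data known, out of the 54532 genes in the deposited tables, and all 10 were found. Kidney RNA was sequenced from 3 WT mice and 3 Trpm2-/- mice (TRPM2-KO in the labels). All were labelled as C57BL/6J, 6 to 8 weeks of age and treated with cisplatin, a platinum drug that causes acute kidney injury. The mice were male and were euthanized 72 h after a single dose of 18 mg/kg. The methods give another, older age range than the labels. WT mice came from a commercial supplier and Trpm2-/- mice from another institution, and whether the groups were littermates is not given in the sources used here. The Trpm2-/- allele is carried in every cell and lacks exons that encode transmembrane segments of TRPM2, a calcium-permeable cation channel. No untreated kidney was analysed here, so each comparison is between genotypes under cisplatin.

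Total counts on genes were between 14053307 and 17150089 per kidney, and the least that these depths resolve, 3 counts, was 0.184 to 0.205 CPM (counts scaled to 1e+06 per TMM-normalized library). Of the 28884 genes with at least 1 count, 15816 passed the filter on low counts and were tested, among them 9 of the 10 principal cell genes. Trpm2 itself had 5, 5 and 27 counts in the WT kidneys and 10, 16 and 20 counts in the Trpm2-/- kidneys. Those whole-gene counts are few and include exons that the allele keeps, so they do not check the genotype labels. The labelled tissue was checked against its segments, and Slc34a1 of the proximal tubule, Umod of the thick ascending limb, Slc12a3 of the distal convoluted tubule and Aqp2 were detected in all 6 kidneys. The share of counts from the mitochondrial genome was 4.43 to 4.72% in WT kidneys and 7.91 to 11.04% in Trpm2-/- kidneys.

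Principal cells set the final water and salt content of urine. Vasopressin binds the V2 receptor on their basolateral side, raises cyclic AMP through adenylyl cyclase and protein kinase A, and brings vesicles with the water channel AQP2 to the apical membrane, from where water leaves the cell through AQP3 and AQP4. Aldosterone acts through the mineralocorticoid receptor on the epithelial sodium channel ENaC, whose alpha, beta and gamma subunits are encoded by Scnn1a, Scnn1b and Scnn1g, while the enzyme encoded by Hsd11b2 inactivates glucocorticoids that would otherwise occupy that receptor. Aqp2 and Aqp3 were lower in Trpm2-/- than in WT kidneys after cisplatin, whereas the other 7 genes tested did not pass the test. In RNA of kidney tissue, fewer principal cells and less RNA per principal cell cannot be told apart.

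The promoters of 4 genes are shown because the data bear on them: Aqp2 and Aqp3 are the 2 genes that fell, and Scnn1b and Scnn1g lie in the same region of chromosome 7. Each sequence is the 250 bases before the transcription start in RefSeq (GRCm38.p6), read 5′ to 3′ on the strand of the gene. Capitals mark matches, on either strand, to 5 short motifs. The first, TGACG, is the core of the cyclic AMP response element. The GATA motif, GATAA, is bound by factors such as GATA3. The steroid motif, TGTTCT, is the core of the element that steroid receptors bind. The E-box searched, CACGTG, is bound by clock factors. The last, TATAA, is the TATA box.
Aqp2 promoter, chr15:99578806-99579055, plus strand: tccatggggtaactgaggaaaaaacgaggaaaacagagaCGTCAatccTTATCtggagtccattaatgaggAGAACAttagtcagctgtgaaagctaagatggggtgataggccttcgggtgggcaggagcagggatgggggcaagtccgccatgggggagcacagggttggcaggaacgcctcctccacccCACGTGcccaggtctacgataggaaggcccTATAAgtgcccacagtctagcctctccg
Aqp3 promoter, chr4:41098184-41098433, minus strand: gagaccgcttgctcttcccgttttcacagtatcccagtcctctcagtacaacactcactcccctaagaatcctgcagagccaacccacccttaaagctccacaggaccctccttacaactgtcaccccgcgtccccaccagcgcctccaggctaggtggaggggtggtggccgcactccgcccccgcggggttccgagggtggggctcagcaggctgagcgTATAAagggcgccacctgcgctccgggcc
Scnn1b promoter, chr7:121864788-121865037, plus strand: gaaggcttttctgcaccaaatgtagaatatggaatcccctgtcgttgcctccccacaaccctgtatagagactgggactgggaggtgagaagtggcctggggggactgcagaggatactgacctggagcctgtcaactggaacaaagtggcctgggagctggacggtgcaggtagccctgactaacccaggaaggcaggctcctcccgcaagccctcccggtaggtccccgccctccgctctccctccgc
Scnn1g promoter, chr7:121734229-121734478, plus strand: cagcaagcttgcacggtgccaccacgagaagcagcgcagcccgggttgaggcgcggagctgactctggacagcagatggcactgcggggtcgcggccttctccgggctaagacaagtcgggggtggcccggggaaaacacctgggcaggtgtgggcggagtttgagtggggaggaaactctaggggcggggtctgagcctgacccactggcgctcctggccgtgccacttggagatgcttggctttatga

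The Aqp2 promoter held a match to each of the 5 motifs. The cyclic AMP motif, read on the other strand, began 211 bases before the start, followed by the GATA motif at 202 bases and the steroid motif at 179 bases, both on the other strand, by the E-box at 58 bases and by the TATA box at 28 bases. The Aqp3 promoter held a TATA box alone, 29 bases before the start, and the Scnn1b and Scnn1g promoters held none of the 5 motifs. RefSeq promoters were matched for 7 of the 10 genes. Those of Fxyd4 and Gata3 held no match either. The Avpr2 promoter held steroid motifs and, on the other strand, matches to the GATA and TATA box motifs. The TATA box match, TTATA as read on the strand of the gene, adjoins a steroid motif. Over all 32851 mouse promoters of this length in the table, 17.8% held the cyclic AMP motif, 22.6% the GATA motif, 16.1% the steroid motif, 6.02% the E-box and 22.8% the TATA box. A match is a description of these letters, and the absence of one says nothing about a factor.

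Aqp2, the water channel that vasopressin moves to the apical membrane, was the most abundant of the 10 genes and had the largest difference among them. The gene (ENSMUSG00000023013) lies on chromosome 15 from 99579055 to 99584547 on the plus strand; this and all positions of genes given here come from the authors' table and are on GRCm38. Its level was 1273, 1128 and 969.7 CPM in WT kidneys and 483.9, 626.5 and 554.0 CPM in Trpm2-/- kidneys. The highest Trpm2-/- kidney thus lay below the lowest WT kidney. Aqp2 fell by 1.02 on the log2 scale (SE 0.17, 95% CI -1.40 to -0.64), from 1124 ± 152 CPM (SD, n = 3) to 555 ± 71.3 CPM (n = 3), with an adjusted p of 0.00602 in the quasi-likelihood test of edgeR after Benjamini-Hochberg adjustment over the 15816 genes. Over the 19 alternative analyses the log2 difference of Aqp2 stayed between -1.12 and -0.91, and its call was lost in 1 of them.

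Aqp2 alone took 0.0922 to 0.129% of all counts in WT kidneys and 0.0490 to 0.0653% in Trpm2-/- kidneys. By mean FPKM, in which counts are divided by gene length and library size, it ranked 46 of 28884 genes in WT kidneys and 87 in Trpm2-/- kidneys. The 10 genes together took 0.150 to 0.203% of counts in WT kidneys and 0.0908 to 0.1298% in Trpm2-/- kidneys, again with no overlap. Aqp2 supplied 61.5 to 63.7% of these counts in WT kidneys and 44.8 to 56.8% in Trpm2-/- kidneys. The sum thus carries the fall of Aqp2 and is not a result separate from it. Taken one by one, 6 of the 9 genes tested overlapped between the genotypes.

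**Figure D1:**
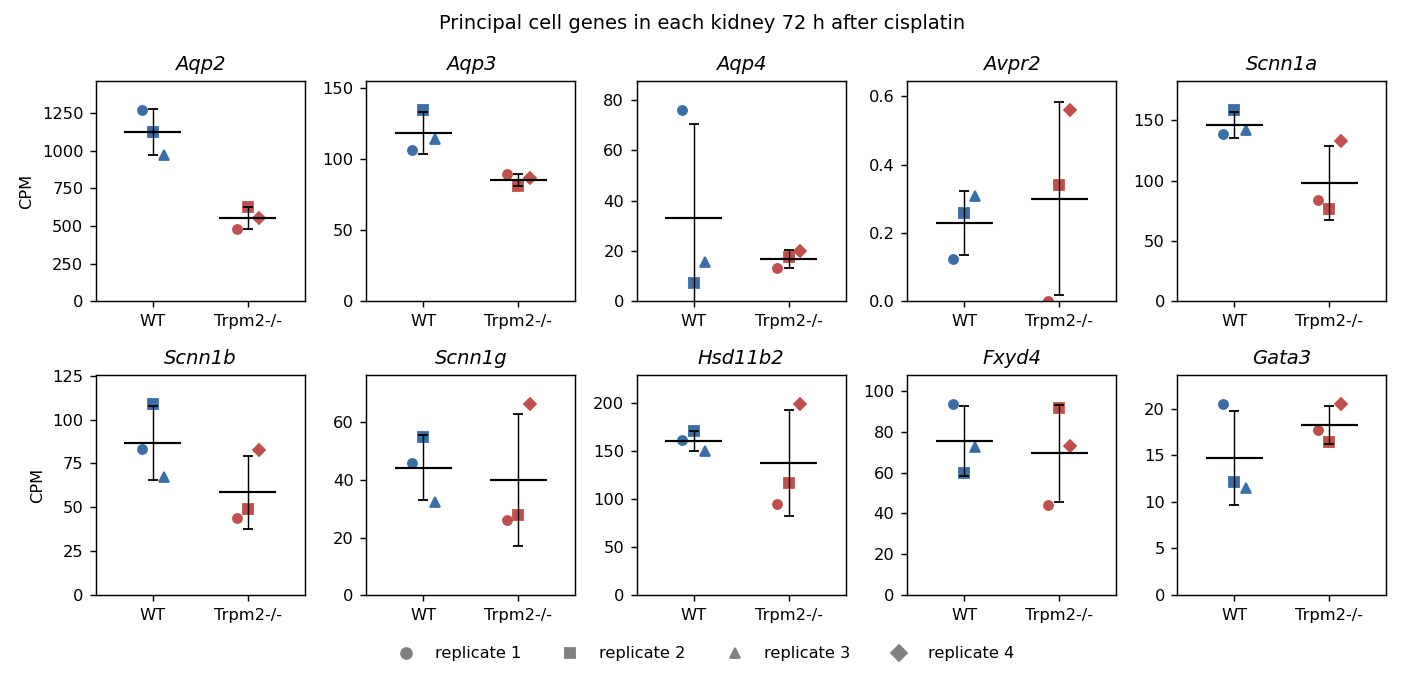
Level of each of the 10 principal cell genes in CPM (linear axis from 0, one scale per gene) in 3 WT and 3 Trpm2-/- kidneys, with the marker shape giving the replicate number, the line the mean and the bar the SD. The 3 Trpm2-/- kidneys lie below the 3 WT kidneys for Aqp2, Aqp3 and Scnn1a, WT replicate 1 stands alone for Aqp4 at 76.2 CPM, and Trpm2-/- replicate 4 is the highest of the 6 kidneys for Scnn1g and Hsd11b2.

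Aqp3, a basolateral channel for water and glycerol (ENSMUSG00000028435, chromosome 4, 41092722 to 41098183, minus strand), was lower by a smaller amount. It measured 106, 135 and 114 CPM in WT kidneys and 89.3, 81.0 and 86.6 CPM in Trpm2-/- kidneys, so the genotypes did not overlap. The change from 118 ± 14.7 to 85.6 ± 4.24 CPM was -0.47 on the log2 scale (SE 0.13, 95% CI -0.77 to -0.17), with an adjusted p of 0.0495 in the quasi-likelihood test of edgeR after Benjamini-Hochberg adjustment. That value lies at the threshold of 0.05, and the call was lost in 15 of the 19 alternatives, each omission of a kidney among them. Over all 19, the adjusted p from the test of each alternative lay between 0.0236 and 0.224. The difference stayed between -0.55 and -0.37.

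Aqp4, the other basolateral water channel (ENSMUSG00000024411, chromosome 18, 15389394 to 15403684, minus strand), is found in principal cells mainly toward the inner medulla, and its level was set by 1 kidney. WT kidneys had 76.2, 7.20 and 15.8 CPM and Trpm2-/- kidneys 13.1, 17.5 and 20.1 CPM. WT replicate 1 had 1235 counts against 112 to 323 in the other 5 kidneys. The log2 difference was -0.97 with all kidneys (SE 0.67, 95% CI -2.47 to 0.54, adjusted p = 0.385 in edgeR's quasi-likelihood test) and 0.55 without WT replicate 1 (adjusted p = 0.354), so neither its size nor its direction can be read from these kidneys.

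WT replicate 1 also stood apart in Slc14a2 and Akr1b3, genes of the inner medulla, and in Upk3a, a gene of the urothelium, the lining of the renal pelvis. The urea transporter gene Slc14a2, which marks the inner medullary collecting duct, measured 156.7, 24.9 and 64.5 CPM in WT kidneys and 3.37, 35.5 and 33.9 CPM in Trpm2-/- kidneys. Akr1b3, the aldose reductase that makes the osmolyte sorbitol, was at 241 CPM in WT replicate 1 and at 39.5 to 49.8 CPM in the other kidneys. Not every osmolyte gene went this way. Slc5a3 had 169.7 CPM in WT replicate 1 and 169.4 CPM in WT replicate 3, and Slc6a6 had 187 and 208 CPM. The uroplakin gene Upk3a had 13.5 CPM in WT replicate 1, 0.77 and 3.31 CPM in the other WT kidneys and 0 to 0.27 CPM in the Trpm2-/- kidneys. Summed over 7 urothelium genes, the level was 754, 767 and 637 CPM in WT kidneys and 981 to 1319 CPM in Trpm2-/- kidneys. WT replicate 1 thus did not stand apart in this sum. Krt20, a keratin that injured tubules can also express, made up 622 to 759 and 972 to 1309 CPM of it. No urothelium gene was at 0 in all kidneys, and the part of these tissues in the Aqp4 values was not tested. Without WT replicate 1, Aqp2 was still lower, by -0.93 on the log2 scale (adjusted p = 0.0183 in edgeR's quasi-likelihood test), and Aqp3 was at -0.55 (adjusted p = 0.0566).

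Avpr2, the V2 receptor gene (ENSMUSG00000031390, chromosome X, 73892102 to 73895502, plus strand), had too few counts to be tested. It had 2, 4 and 5 counts in WT kidneys and 0, 5 and 9 counts in Trpm2-/- kidneys, or at most 0.56 CPM. A difference was not detectable at these counts. Of the 2886 exonic bases of Avpr2 in the annotation, 2347 also belong to exons of Arhgap4 on the opposite strand, which had 42 to 94 counts, and since the strand setting of the counting is not given in the sources used here, reads of the pair cannot be told apart.

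The sodium channel genes had lower means in Trpm2-/- kidneys, but no subunit passed the test. Scnn1a, the alpha subunit (ENSMUSG00000030340, chromosome 6, 125320659 to 125344943, plus strand), measured 138, 159 and 142 CPM in WT kidneys and 84.2, 76.1 and 133 CPM in Trpm2-/- kidneys. All Trpm2-/- kidneys were below all WT kidneys, replicate 4 only just. The log2 difference was -0.58 (SE 0.20, 95% CI -1.04 to -0.13), with an unadjusted p of 0.0172 and an adjusted p of 0.0926 in edgeR's quasi-likelihood test.

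Scnn1b, the beta subunit (ENSMUSG00000030873, chromosome 7, 121865038 to 121918514, plus strand), had 83.3, 109 and 67.5 CPM in WT kidneys against 44.0, 49.0 and 82.6 CPM in Trpm2-/- kidneys. Its log2 difference of -0.57 (SE 0.25, 95% CI -1.13 to 0.00) had an adjusted p of 0.178 in edgeR's quasi-likelihood test. Trpm2-/- replicates 1 and 2 lay below the WT range and replicate 4 within it. Scnn1g, the gamma subunit (ENSMUSG00000000216, chromosome 7, 121734479 to 121768475, plus strand), had 45.8, 54.8 and 32.5 CPM against 26.0, 27.8 and 66.6 CPM. Here replicate 4 was the highest of all 6 kidneys, and the log2 difference was -0.14 (SE 0.34, 95% CI -0.91 to 0.63, adjusted p = 0.826 in edgeR's quasi-likelihood test).

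Hsd11b2, the enzyme that shields the mineralocorticoid receptor (ENSMUSG00000031891, chromosome 8, 105518755 to 105523988, plus strand), had the same order of the 6 kidneys as Scnn1g. It measured 162, 171 and 150.2 CPM in WT kidneys and 94.7, 117 and 199.5 CPM in Trpm2-/- kidneys, with replicate 4 above and the other Trpm2-/- kidneys below every WT kidney. The log2 difference was -0.23 (SE 0.24, 95% CI -0.77 to 0.31, adjusted p = 0.579 in edgeR's quasi-likelihood test). Across the 6 kidneys, which include both genotypes, the log2 CPM of Hsd11b2 and Scnn1g had a Pearson correlation of 0.92, and that of Scnn1a and Scnn1b 0.92.

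Without Trpm2-/- replicate 4, the differences of these genes were larger. In the quasi-likelihood test of edgeR after Benjamini-Hochberg adjustment on the other 5 kidneys, the log2 difference of Scnn1a was -0.86 (adjusted p = 0.00851), that of Scnn1b -0.89 (adjusted p = 0.0285), that of Hsd11b2 -0.59 (adjusted p = 0.0390) and that of Scnn1g -0.71 (adjusted p = 0.0705). In that fit 4 principal cell genes were lower, namely Aqp2, Scnn1a, Scnn1b and Hsd11b2, while Aqp3 was at -0.47 (adjusted p = 0.0859). Over all genes 11.2% were then called in either direction.

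Among the Trpm2-/- kidneys, replicate 4 was also the highest in Slc12a3, Calb1 and the summed genes of the distal convoluted and connecting tubules. ENaC and Hsd11b2 are expressed in these segments too. Slc12a3, the thiazide-sensitive cotransporter, had 125, 143 and 132 CPM in WT kidneys and 93.8, 24.3 and 168 CPM in Trpm2-/- kidneys. Calb1, a calcium-binding protein, had 129, 243 and 99.6 CPM against 109.6, 41.6 and 191 CPM. The 6 genes listed for these segments summed to 1427 to 2707 CPM in WT kidneys and to 913, 471 and 1855 CPM in Trpm2-/- replicates 1, 2 and 4. In this sum replicate 4 thus lay within the WT range, and replicates 1 and 2 lay below it. None of the 6 genes was at 0 in all kidneys, and the part of these segments in the Scnn1b, Scnn1g and Hsd11b2 values was not tested.

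**Figure D2:**
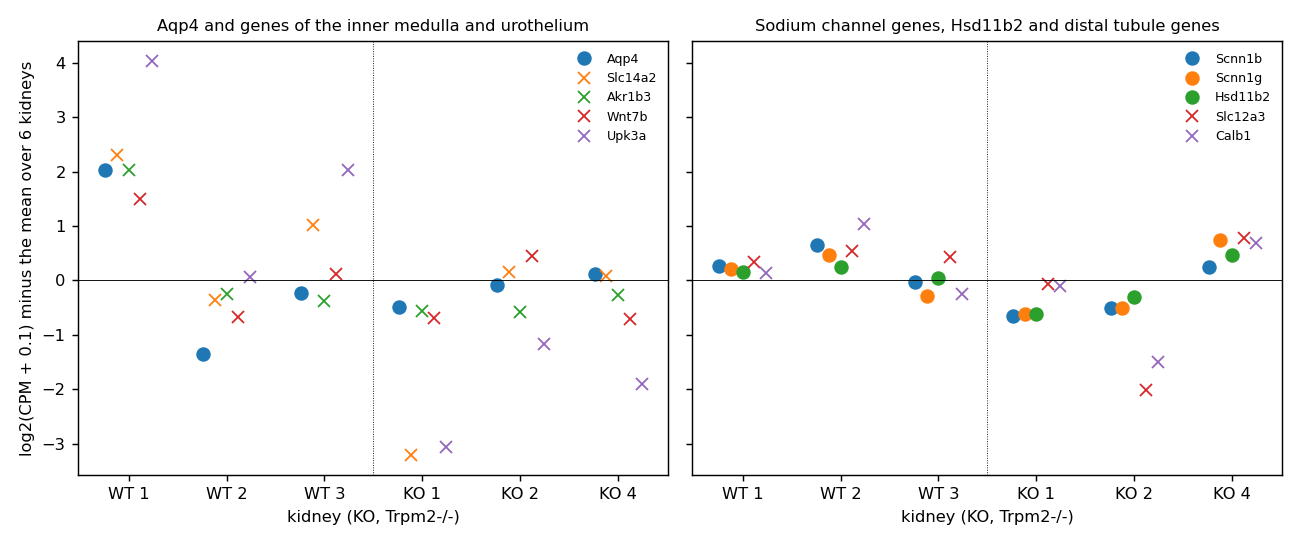
Log2(CPM + 0.1) of each gene minus its mean over the 6 kidneys, for Aqp4 beside 4 genes of the inner medulla and urothelium (left) and for Scnn1b, Scnn1g and Hsd11b2 beside 2 distal tubule genes (right), with circles for principal cell genes and crosses for the others. WT replicate 1 is the highest kidney for all 5 genes on the left. For all 5 genes on the right, Trpm2-/- replicate 4 is above the mean, as are WT replicates 1 and 2.

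Fxyd4, a small regulator of the sodium pump (ENSMUSG00000004988, chromosome 6, 117933559 to 117937692, minus strand), measured 93.9, 59.8 and 72.5 CPM in WT kidneys and 44.3, 91.5 and 72.9 CPM in Trpm2-/- kidneys. The ranges overlapped almost fully, and the log2 difference was -0.12 (SE 0.26, 95% CI -0.69 to 0.45, adjusted p = 0.808 in edgeR's quasi-likelihood test). Gata3, the transcription factor of the collecting duct lineage (ENSMUSG00000015619, chromosome 2, 9857078 to 9890034, minus strand), was the only one of the 9 genes tested with a positive difference. It measured 20.5, 12.1 and 11.5 CPM in WT kidneys and 17.8, 16.5 and 20.5 CPM in Trpm2-/- kidneys, a log2 difference of 0.31 (SE 0.24, 95% CI -0.23 to 0.84, adjusted p = 0.439 in edgeR's quasi-likelihood test). Gata3 is also expressed by T cells and mesangial cells. The 6 T cell genes listed, CD3 genes among them, summed to 2.10 to 3.62 CPM in WT and 2.05 to 4.57 CPM in Trpm2-/- kidneys. The 6 mesangial and stromal genes summed to 44.0 to 88.2 and 39.6 to 124 CPM, and their part in the Gata3 values was not tested.

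Of the 9 principal cell genes tested, 2 were lower and 0 higher at an adjusted p under 0.05 by edgeR's quasi-likelihood test, whereas 12% of all genes tested were called, 7.28% lower and 4.74% higher. At an unadjusted p under 0.05, 3 genes were lower (Aqp2, Aqp3 and Scnn1a) and 0 higher. The share of all genes at that unadjusted cut was not computed, which also limits such counts in the lists below. DESeq2 called 3 lower and limma-voom 1, and neither called any higher. Over all genes tested, DESeq2 called 16.1% and limma-voom 11.7% in either direction. At the threshold of the study's methods, an absolute log2 fold change above 1 with a p under 0.05, taken as unadjusted here, Aqp2 alone was lower and 0 genes were higher, against 4.1% lower and 3.5% higher of all genes. Its log2 difference of -1.02 lies at that threshold, and the count was 0 without WT replicate 1, without Trpm2-/- replicate 1 and with upper quartile normalization, and 2 without WT replicate 2. All Trpm2-/- kidneys were below all WT kidneys for 3 of the 9 genes (16.8% of all genes) and above for 0 (16.7% of all genes). The log2 difference was below 0 for 8 of the 9 genes, against 48.4% of all genes, with a median of -0.47 for the 9 genes and 0.02 for all genes. Among the 8, Aqp4, Scnn1g and Fxyd4 changed sign in fits that left out 1 kidney. A difference below 0 was not particular to principal cell genes. It was found in 7 of 7 proximal tubule and 6 of 6 thick ascending limb genes, and in 2 of 8 intercalated cell genes.

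**Figure D3:**
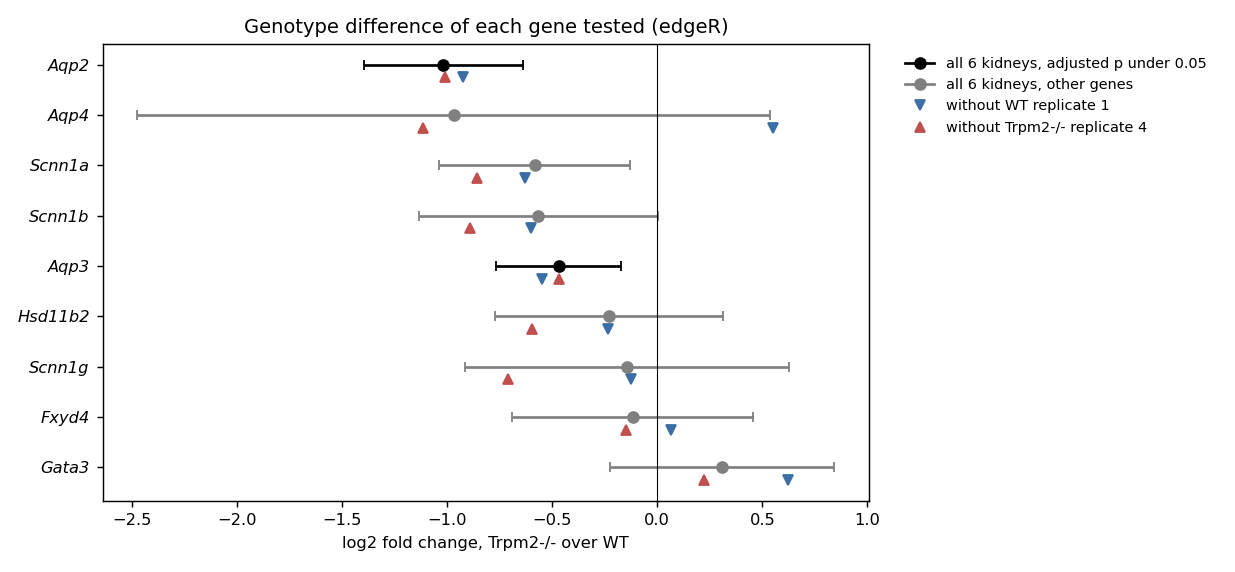
Log2 fold change, Trpm2-/- over WT, of the 9 genes tested, with 95% confidence intervals from edgeR on all 6 kidneys (black where the adjusted p was under 0.05), and the values without WT replicate 1 (blue triangles) and without Trpm2-/- replicate 4 (red triangles). Aqp2 is at -0.93 and -1.01 under these omissions, Aqp4 turns from -0.97 to 0.55 without WT replicate 1, and Scnn1a, Scnn1b, Scnn1g and Hsd11b2 move to between -0.89 and -0.59 without Trpm2-/- replicate 4.

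Levels of different genes were compared on FPKM, which divides by gene length. In WT kidneys Aqp2 stood at 693 ± 95.6 FPKM (SD, n = 3), followed by Hsd11b2 at 76.5 ± 5.05 and Aqp3 at 56.7 ± 7.01 FPKM. Fxyd4 (33.7 ± 7.76 FPKM), Scnn1a (31.0 ± 2.31) and Scnn1b (28.8 ± 7.01) came next, and their kidneys overlapped. Scnn1g had 12.97 ± 3.31 FPKM, Aqp4 5.70 ± 6.49, Gata3 3.24 ± 1.12 and Avpr2 0.0694 ± 0.0286 FPKM, with Aqp4 overlapping both its neighbours. The order in Trpm2-/- kidneys was Aqp2 (345 ± 43.4 FPKM), Hsd11b2 (65.8 ± 26.9), Aqp3 (41.3 ± 2.19), Fxyd4 (31.3 ± 10.6), Scnn1a (20.9 ± 6.71), Scnn1b (19.6 ± 7.17) and Scnn1g (11.9 ± 6.85), then Gata3 (4.04 ± 0.48), Aqp4 (2.93 ± 0.63) and Avpr2 (0.0920 ± 0.0868). Among these, neighbours from Aqp3 to Scnn1g overlapped, whereas Hsd11b2 lay above Aqp3 and Gata3 above Aqp4 in every kidney. Apart from Gata3 and Aqp4, whose kidneys overlapped in WT, the order was that of the WT kidneys. How far the exons that Avpr2 shares with Arhgap4 affect its FPKM was not tested.

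**Figure D4:**
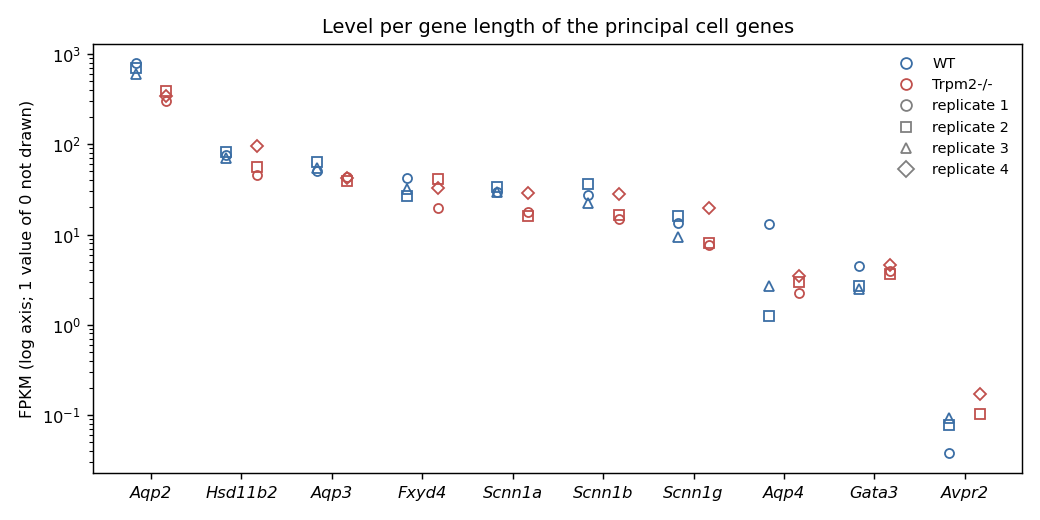
FPKM (log axis) of the 10 genes in order of their WT mean, for 3 WT and 3 Trpm2-/- kidneys, with the marker shape giving the replicate number; the value of 0 for Avpr2 in 1 Trpm2-/- kidney is not drawn. Aqp2 lies near 693 FPKM in WT and 345 FPKM in Trpm2-/- kidneys, above all other genes, and Avpr2 lies below 0.2 FPKM.

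The balance between genes was compared as 5 ratios of FPKM, each with an exact two-sided permutation test that cannot give a p below 0.1 with 3 kidneys against 3. The Aqp3 to Aqp2 ratio was 0.0648, 0.0926 and 0.0915 in WT kidneys and 0.143, 0.1003 and 0.121 in Trpm2-/- kidneys, a difference in mean log2 ratio of 0.55 (p = 0.1, exact, adjusted p = 0.25). Each Trpm2-/- kidney exceeded each WT kidney. The Hsd11b2 to Aqp2 ratio likewise did not overlap, at 0.0979, 0.117 and 0.119 against 0.151, 0.144 and 0.278 (difference 0.72, exact p = 0.1, adjusted p = 0.25). Ratios to Aqp2 carry the fall of Aqp2 itself, so they are not a result separate from it. The ratio of Aqp4 to Aqp2 differed by 0.71 (exact p = 0.5, adjusted p = 0.625) and turned to -0.05 without WT replicate 2. The subunit ratios of ENaC overlapped: Scnn1b to Scnn1a differed by 0.03 (exact p = 0.9, adjusted p = 0.9) and Scnn1g to Scnn1a by 0.37 (exact p = 0.4, adjusted p = 0.625).

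A list of 17 genes covered vasopressin signaling and water channel traffic. It ran from the stimulatory G protein and adenylyl cyclases to the vesicle proteins that carry AQP2, and also held Nfat5. Nfat5 is counted again among the osmolyte genes. All 17 were tested, and 2 were higher and 0 lower in the quasi-likelihood test of edgeR after Benjamini-Hochberg adjustment (at an unadjusted p under 0.05, 3 higher and 1 lower; DESeq2 2 and 1, limma-voom 2 and 0). Nfat5, the transcription factor of the response to hypertonicity, rose from 120, 84.9 and 96.3 CPM in WT kidneys to 163, 155 and 184 CPM in Trpm2-/- kidneys (log2 fold change 0.74, SE 0.16, adjusted p = 0.0168). Prkacb, a catalytic subunit of protein kinase A, rose from 60.7 ± 3.61 to 96.0 ± 21.6 CPM (log2 fold change 0.66, adjusted p = 0.0325). Neither of these genes overlapped between genotypes. Which cells of the kidney the values of this list come from was not tested. Vamp2, the vesicle protein of AQP2 docking, was at -0.50 (adjusted p = 0.0552), Creb1, the cyclic AMP responsive factor, at 0.37 (adjusted p = 0.107) and Prkar2a, a regulatory subunit of the kinase, at 0.34 (adjusted p = 0.204). The median log2 difference of the list was 0.06. The count of higher genes was 1 without WT replicate 1 or Trpm2-/- replicate 1, where 9.23 and 7.77% of all genes were called. It was 0 without WT replicate 2 or 3, where 4.24 and 3.86% of all genes were called.

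The list for aldosterone action and sodium channel control held 20 genes, of which 19 were tested, 3 were lower and 2 higher in the same test, with a median of -0.28. Usp2, a deubiquitinase that can act on ENaC, fell by 1.12 on the log2 scale (147 ± 24.6 to 67.9 ± 5.11 CPM, SE 0.15, adjusted p = 0.00315). Prss8, the protease prostasin that cleaves the gamma subunit, fell by 0.76 (263 ± 43.4 to 155 ± 5.27 CPM, adjusted p = 0.0120). Neither gene is restricted to principal cells. The glucocorticoid receptor gene Nr3c1 rose from 47.6 ± 4.93 to 70.7 ± 8.36 CPM (log2 fold change 0.57, adjusted p = 0.0299) and the kinase gene Wnk1 from 151 ± 17.1 to 228 ± 34.2 CPM (0.59, adjusted p = 0.0380). The mineralocorticoid receptor gene Nr3c2 had 8.52 ± 1.13 CPM in WT and 10.2 ± 1.17 CPM in Trpm2-/- kidneys (0.26, adjusted p = 0.446). Sgk1, the kinase that aldosterone induces, had 232 ± 5.92 and 182 ± 4.21 CPM without overlap (-0.35, adjusted p = 0.0846). Without WT replicate 2 the list had 1 gene lower, and it had 0 higher without WT replicate 2 or 3 or Trpm2-/- replicate 1 and 1 higher without Trpm2-/- replicate 4. In these 4 fits, in the order WT 2, WT 3, Trpm2-/- 1 and 4, the share of all genes called was 4.24, 3.86, 7.77 and 11.2%.

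Other genes of the collecting duct epithelium were mostly not called. Of 23 listed and tested, 2 were higher and 0 lower by edgeR's quasi-likelihood test (at an unadjusted p under 0.05, 4 higher and 2 lower; DESeq2 and limma-voom each 2 higher and 0 lower), with a median of 0.04. Ptger4, a prostaglandin E2 receptor, rose from 6.30 ± 0.89 to 14.2 ± 1.79 CPM (log2 fold change 1.17, SE 0.21, adjusted p = 0.00756), and Pax8, a transcription factor of the nephron and duct, from 125 ± 8.74 to 174 ± 14.2 CPM (0.47, adjusted p = 0.0415). Krt18 was at 0.43 (adjusted p = 0.152), Npnt at 0.51 (adjusted p = 0.159) and Ptger3 at -0.87 (adjusted p = 0.164). The cells that these values come from, in the duct or elsewhere, were not tested. Of the 7 osmolyte genes, Nfat5 was higher and none lower (at an unadjusted p under 0.05, 2 higher and 1 lower; DESeq2 2 and 0, limma-voom 1 and 0), with a median of 0.05. The count of higher genes in the list of 23 was 1 without WT replicate 2 or 3 or Trpm2-/- replicate 1 or 2. Of all genes, 4.24, 3.86, 7.77 and 12.6% were called in these fits.

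Aquaporins and FXYD genes of other segments were measured beside the principal cell members. Of 8 other aquaporins, 5 were tested and 3 were lower: Aqp1 of the proximal tubule and thin limb (591 ± 165 to 161 ± 61.4 CPM, log2 fold change -1.88, SE 0.30, adjusted p = 0.00564), Aqp7 (-0.87, adjusted p = 0.00577) and Aqp11 (-0.94, adjusted p = 0.00475), both also of the proximal tubule. Aqp6 of intercalated cells had 67.1 ± 21.2 CPM in WT and 33.5 ± 16.9 CPM in Trpm2-/- kidneys (adjusted p = 0.0883), and Aqp12 was at 0 in every kidney. Of 6 other FXYD genes, 4 were tested. Fxyd2, the gamma subunit of the sodium pump, fell by 0.85 (adjusted p = 0.0365) and Fxyd5 rose by 0.68 (adjusted p = 0.0453), while Fxyd4 was at -0.12. Both FXYD calls were lost when any kidney other than Trpm2-/- replicate 4 was left out, where 3.86 to 12.6% of all genes were called. All these adjusted p values are from edgeR's quasi-likelihood test.

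Lists for other cells of the kidney were read as measured levels. All 7 proximal tubule genes were lower (median -1.74; 5 of 7 without Trpm2-/- replicate 4), and their sum was 2761 to 3468 CPM in WT and 657 to 1113 CPM in Trpm2-/- kidneys. In the thick ascending limb 2 of 6 genes were lower, Umod and Cldn10 (median -0.99, sum 735 to 2245 and 194 to 817 CPM), and 4 were lower without Trpm2-/- replicate 4. Of the 5 distal convoluted and connecting tubule genes tested, 0 were called by edgeR's quasi-likelihood test (at an unadjusted p under 0.05, 1 lower; DESeq2 and limma-voom 0), with a median of -0.46. Intercalated cells, the acid-base cells that share the duct with principal cells, had 0 of 8 genes called (at an unadjusted p under 0.05, 1 lower; DESeq2 and limma-voom 1 lower each), with a median of 0.22 and a sum of 824 to 973 CPM in WT and 848 to 1156 CPM in Trpm2-/- kidneys. The principal cell genes summed to 1576 to 1999 CPM in WT and 897 to 1236 CPM in Trpm2-/- kidneys. Aqp2 is the largest part of that sum, which carries its fall. Of the urothelium genes 1 was lower (Upk3a) and 1 higher (Krt20) of 5 tested, of the mesangial and stromal genes 1 was higher (Acta2) of 6, with 0 higher without Trpm2-/- replicate 4 or by limma-voom and 2 by DESeq2, and the 1 T cell gene tested, Lck, was at 0.29 (adjusted p = 0.647). Each Trpm2-/- kidney thus had a lower proximal tubule sum, beside its higher mitochondrial share, than each WT kidney. With the mitochondrial genome left out, the log2 difference of Aqp2 was -1.01 (adjusted p = 0.00639 in edgeR's quasi-likelihood test), and the part of the proximal tubule in the Aqp2 values was not tested.

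**Figure D5:**
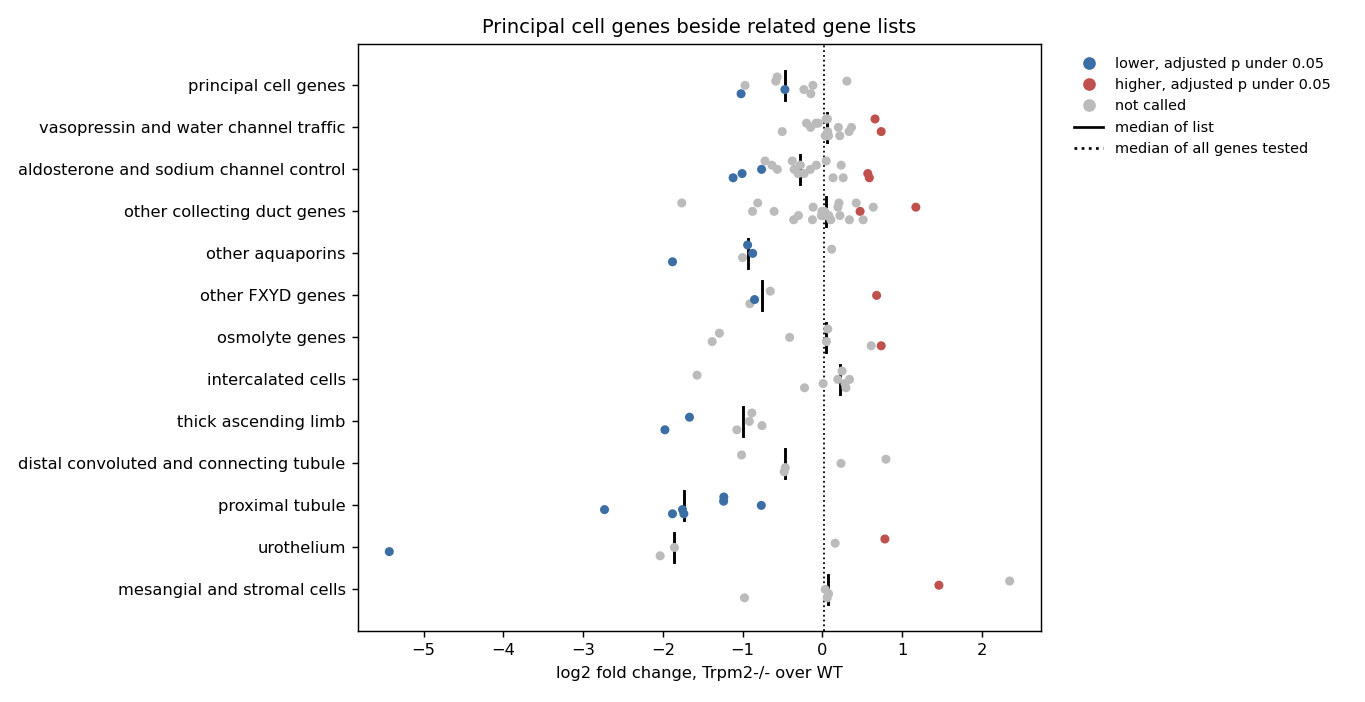
Log2 fold change, Trpm2-/- over WT, of each gene tested in the principal cell list and 12 related lists, blue where lower and red where higher at an adjusted p under 0.05, with black bars for list medians and the dotted line for the median of all genes (0.02). The principal cell genes center on -0.47, between the intercalated cell genes at 0.22 and the proximal tubule genes at -1.74.

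The genes whose levels followed Aqp2 most closely were named by the Pearson correlation of log2(CPM + 0.5) over the 6 kidneys, among 9552 genes with a mean of at least 10 CPM. They were Ipo13, an import receptor of the nucleus (r = 0.997), Ihh, a hedgehog ligand (r = 0.98), Slc22a7, an organic anion transporter (r = 0.98), Fam234a (r = 0.98) and Mrps27, a mitochondrial ribosomal protein (r = 0.98). All points share the genotype difference, and no p is given. Ipo13 spanned a narrow range, from 41.1 to 50.5 CPM, with a log2 difference of -0.22, whereas Slc22a7 went from 25.7 to 28.8 CPM in WT to 4.22 to 8.81 CPM in Trpm2-/- kidneys (-1.97, adjusted p = 0.00263 in edgeR's quasi-likelihood test). Among the principal cell genes, the correlation with Aqp2 was 0.81 for Aqp3, 0.72 for Scnn1a, 0.69 for Scnn1b, 0.48 for Hsd11b2, 0.42 for Fxyd4, 0.32 for Scnn1g, 0.30 for Aqp4 and -0.37 for Gata3.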

How the data were processed

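RNA from kidneys of 3 WT and 3 Trpm2-/- mice was sequenced by the authors. The methods name the source as kidney tissues, with no part of the kidney given. They deposited read counts per gene, not normalized, and FPKM values, which the authors scaled by gene length and library total. HISAT2, StringTie and mm9 are named in the submitters' processing notes with no role; 98.3% of gene identifiers in the tables have the start and end of GENCODE M21 (GRCm38), and table positions are given as GRCm38. Strand settings and counter are not given in the sources used here.

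Groups came from the labels. The counts were tested with edgeR 4.0.16 in R 4.3.3 (default filterByExpr, TMM, two-sided quasi-likelihood test on genotype, Benjamini-Hochberg adjustment over 15816 genes). CPM uses TMM library sizes, and the SE is the absolute log2 fold change over the square root of F. Nothing in the sources ties the kidneys to litters or batches, and replicates of a genotype differed by more than sampling noise (chi-square per degree of freedom 13.5 to 36.7). The p-values of edgeR set the genotype difference against the spread between these kidneys, which the fit estimates for each gene with information borrowed from other genes. The 3-count floors cover counting error only.

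The members and lists were chosen with earlier results of these data known, and the lists were compiled by hand. Named genes are the 10 members, up to 5 genes of each pathway list with the smallest p, the markers a result turns on, and the 5 genes most like Aqp2. A gene that this rule covers is not reported here. Alternatives were DESeq2 size factors, upper quartile, other filters, DESeq2 1.42.0, limma-voom and limma on log2(FPKM + 1) or log2(FPKM + 0.1) (limma 3.58.1), protein-coding genes only, no mitochondrial genome, the replicate number as a block, and each kidney left out; leaving out WT replicate 1 and Trpm2-/- replicate 4 together was chosen after seeing the data. The tests were checked on simulated counts. Promoters are from RefSeq (GRCm38.p6).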

Additional observations from a re-analysis of the deposited data

How the results depend on the processing

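The number of principal cell genes lower at an adjusted p under 0.05, 2 with edgeR on all kidneys, was 1 with DESeq2 size factors, with upper quartile normalization, with limma-voom, with limma on log2(FPKM + 1) with and without a filter and without the mitochondrial genome, 0 with limma on log2(FPKM + 0.1), 5 with no filter, and between 1 and 4 when each kidney was left out in turn, with 4 without Trpm2-/- replicate 4. The DESeq2 Wald test gave 3, a mean of at least 1 CPM 2, protein-coding genes only 2, and leaving out WT replicate 1 and Trpm2-/- replicate 4 together 3. Over all genes, the DESeq2 Wald test called 16.1% and the fit with no filter 10.2% in either direction. Limma on log2(FPKM + 1) called 5.5% with a filter and 2.7% without, and limma on log2(FPKM + 0.1) called 1.37%. DESeq2 size factors, upper quartile normalization, limma-voom and the fit without the mitochondrial genome called between 11.7 and 12.5%. With each kidney left out in turn, between 3.86 and 12.6% were called. A mean of at least 1 CPM gave 13.1%, protein-coding genes only 13.7%, and leaving out WT replicate 1 and Trpm2-/- replicate 4 together 10.1%. No alternative called a member higher. At an absolute log2 fold change above 1 with a p under 0.05, 1 gene was lower with all kidneys, 0 with upper quartile normalization and without both of those kidneys, and 0 to 2 with each kidney left out. Aqp2 lost its call only with limma on log2(FPKM + 0.1) (adjusted p = 0.0592), and the change of Aqp3 kept its direction in all 19 alternatives. With no filter, Aqp4 was called lower (-0.98, adjusted p = 5.76e-06), and the cause was not tested. Of the differences that changed sign, none was called: with each kidney left out Aqp4 ranged from -1.45 to 0.55, Scnn1g from -0.71 to 0.089 and Fxyd4 from -0.37 to 0.12, and without both kidneys Aqp4 was at 0.42 and Fxyd4 at 0.043. The log2 ratio of Scnn1b to Scnn1a ranged from -0.12 to 0.15 and that of Aqp4 to Aqp2 from -0.049 to 1.57.

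Replicate numbers 1 and 2 occur in both genotypes but belong to different mice, and their deviations from the group means correlated at 0.10 and -0.00275, so they were not taken as pairs. With the replicate block, which leaves WT replicate 3 and Trpm2-/- replicate 4 without weight, 4 members were lower at an adjusted p under 0.05 and 2 at the fold threshold. Aqp2 was at -1.12 (adjusted p = 0.0213), Aqp3 at -0.49 (0.175), Scnn1a at -0.89 (0.0213), Scnn1b at -1.04 (0.00978), Scnn1g at -0.90 (0.0200) and Hsd11b2 at -0.66 (0.0645), and 6.34% of all genes were called. Avpr2 had 0 to 9 counts per kidney, and the parts of depth and of the exons shared with Arhgap4 in these counts were not tested.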
